A study of Rattus norvegicus with 4 samples.

Results

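H3K27me3 peaks centred in LTR retroelements were examined in the peak list of the uninjured rat sciatic nerve. A peak was counted where the authors' detailed annotation placed its centre in a repeat of the class LTR. This held for 11740 of 129550 peaks, or 9.06% (95% Wilson interval 8.91 to 9.22%). The peaks were then split by the repeat family and by the repeat name in the same annotation.

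The tissue was sciatic nerve of male Sprague Dawley rats at postnatal day 42, from a side that received a skin incision without a nerve cut. The nerve of the other side of each animal had been transected 1 day earlier, so these animals carried an injury elsewhere. Chromatin was digested with micrococcal nuclease, and 2 libraries were immunoprecipitated with an antibody to trimethylated lysine 27 of histone H3, with 2 libraries of input chromatin beside them. The labels do not say how many animals a library holds. The authors deposited a single combined peak list on the rat assembly rn5, in which each peak has 1 score and the libraries have no values of their own. No replicate error and no test of a difference could therefore be given. Intervals of shares and medians treat peaks as independent and cover counting error only, and the depth of each library is unknown. A whole nerve mixes Schwann cells with fibroblasts, vessel and immune cells, and a peak score does not separate the share of cells with the mark from its density per cell. The list holds no expression values, so the tissue could not be checked by marker transcripts.

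LTR retroelements are relics of retroviruses that copied themselves into the germ line. A complete copy has a long terminal repeat (LTR) at each end, which carries the promoter, around an internal segment that encodes viral proteins, and recombination between the ends often leaves a solitary LTR. The families named here are ERV1, ERVK and ERVL, which are classes of endogenous retroviruses, ERVL-MaLR, a large group of non-autonomous relatives of ERVL, and Gypsy, an older group. In mammalian cells these elements are best known to be silenced by DNA methylation and by H3K9 methylation through TRIM28 and SETDB1. H3K27me3 is placed by the Polycomb complex PRC2 and is best known at the promoters of silenced developmental genes.

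The transcription start site (TSS) of the nearest gene lay inside 5 LTR-centred peaks. These genes were Foxe3, a forkhead transcription factor of the lens, LOC680885, Atp6v1h, a subunit of the vacuolar proton pump, Olr1522, an olfactory receptor, and Abca17, an ABC transporter. The 250 bases upstream of the RefSeq start are shown for the 3 genes matched in the RefSeq promoter table of GRCr8, because they are the gene promoters that an LTR-centred peak reached across. CG dinucleotides are in capitals, and each sequence runs 5′ to 3′ along its gene, here the minus strand. The windows are chr5:133683267-133683516 for Foxe3, chr16:7651191-7651440 for LOC680885 and chr10:73195279-73195528 for Olr1522, in GRCr8 and not in the rn5 coordinates of the peaks.
Foxe3: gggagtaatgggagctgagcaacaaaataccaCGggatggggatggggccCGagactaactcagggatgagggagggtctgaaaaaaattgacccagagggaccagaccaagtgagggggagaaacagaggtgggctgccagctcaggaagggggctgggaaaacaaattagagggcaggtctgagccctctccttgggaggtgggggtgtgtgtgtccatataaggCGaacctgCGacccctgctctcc
LOC680885: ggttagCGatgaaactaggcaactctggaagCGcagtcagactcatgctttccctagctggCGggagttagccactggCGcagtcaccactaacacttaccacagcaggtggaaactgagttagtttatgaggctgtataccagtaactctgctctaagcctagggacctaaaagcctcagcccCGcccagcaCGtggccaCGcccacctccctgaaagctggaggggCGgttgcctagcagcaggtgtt
Olr1522: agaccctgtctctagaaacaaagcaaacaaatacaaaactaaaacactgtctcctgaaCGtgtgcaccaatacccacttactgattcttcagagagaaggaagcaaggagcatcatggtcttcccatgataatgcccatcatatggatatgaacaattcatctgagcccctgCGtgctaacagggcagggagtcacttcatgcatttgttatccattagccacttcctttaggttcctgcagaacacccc
The motif searched was CG, which reads the same on both strands. The Foxe3 window held 4 CG dinucleotides, and 62.6% of 33469 rat promoters of the same length held at least as many. The LOC680885 window held 8, a number reached by 41.6% of promoters, and the Olr1522 window held 2, reached by 81.9%. The median over all promoters was 5, so these 3 windows lay on either side of the middle of the range.

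LTR-centred peaks were mostly narrow, as were LINE- and SINE-centred peaks and the list as a whole, and lower in score than intergenic or intronic peaks outside repeats. Their median width was 187 bp, against 187 bp in both LINE- and SINE-centred peaks and 191 bp in all peaks. The smallest width in the list, 150 bp, was held by 48.5% of LTR-centred peaks, against 49.1% of LINE-centred, 49.5% of SINE-centred and 45.2% of all peaks. Scores are the authors' own values, deposited without a stated scale. The score had a median of 4.33 in LTR-centred peaks (95% interval 4.13 to 4.33), 4.13 in LINE-centred peaks, 4.33 in SINE-centred peaks and 4.54 in intergenic or intronic peaks outside repeats. The last set, of 84226 peaks, is the closest match, because a centre in a promoter, exon or untranslated region was annotated as such before any repeat was considered. A score in the top 25% of the list (9.9 or higher) was held by 25.1% of all peaks. The share was 20.2% of LTR-centred peaks (19.5 to 20.9%), against 19.9% of LINE-centred peaks (19.1 to 20.6%), 21.2% of SINE-centred peaks (20.5 to 21.9%) and 25.7% of intergenic or intronic peaks outside repeats (25.4 to 26.0%). The LTR interval overlapped those of both other retroelement classes and lay below that of peaks outside repeats.

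LTR-centred peaks were also less often broad than peaks outside repeats. A width of at least 1000 bp was found for 10.9% of all peaks. It was found for 6.57% of LTR-centred peaks (6.13 to 7.03%, 771 peaks), against 7.13% of LINE-centred peaks, 8.10% of SINE-centred peaks and 11.5% of intergenic or intronic peaks outside repeats. A width of at least 5000 bp was reached by 1.01% of all peaks and by 0.256% of LTR-centred peaks (0.179 to 0.365%, 30 peaks). The share was 0.317% of LINE-centred peaks (0.227 to 0.443%, 34 peaks), which overlapped. It was 0.540% of SINE-centred peaks (64 peaks) and 1.04% of intergenic or intronic peaks outside repeats (880 peaks). Read by width, LTR elements held the centre of 9.73% of peaks of 150 bp and of 2.28% of peaks of at least 5000 bp (1.61 to 3.24%). A score in the top 1% of the list, held by 1% of all peaks, was held by 34 LTR-centred peaks, or 0.290% (0.207 to 0.404%). LTR-centred peaks made up 6.46% of the summed width and 5.59% of the summed score, both lower than their 9.06% of the number of peaks. Only the peak's centre decides the class, so a wide peak centred in an LTR element also covers other sequence.

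**Figure D1:**
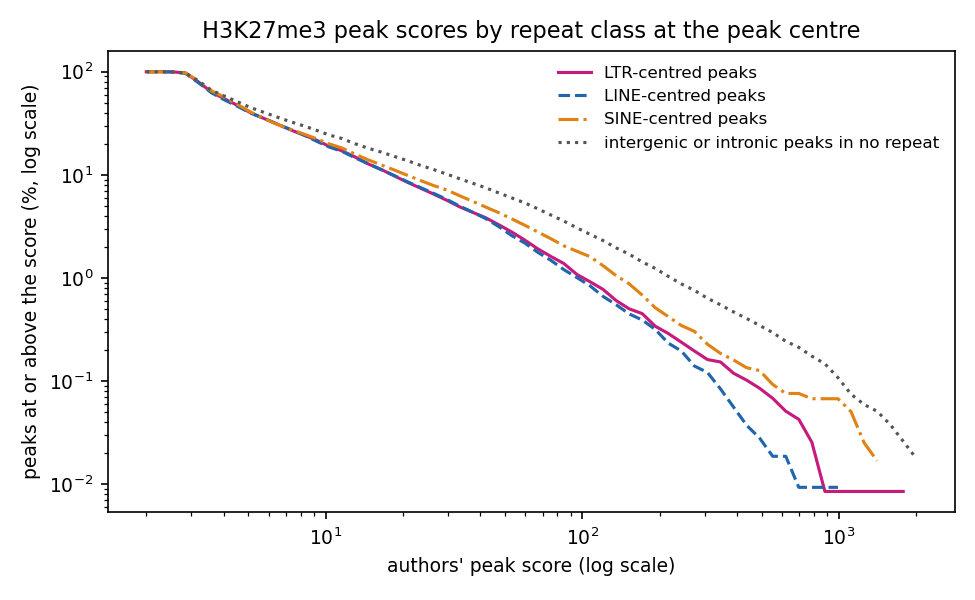
Share of peaks (%, log scale) at or above each value of the authors' peak score (log scale) for LTR-centred peaks, LINE-centred peaks, SINE-centred peaks and intergenic or intronic peaks in no repeat. The retroelement curves lie below that of peaks in no repeat at scores of 9.9 and higher, with 20.2% of LTR-centred peaks and 25.7% of peaks in no repeat at or above 9.9.

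LTR-centred peaks lay outside genes more often than those of other retroelement classes. The authors' annotation called 87.2% of them intergenic (86.6 to 87.8%) and the remaining 1500 intronic, against 84.9% intergenic among LINE-centred peaks (84.2 to 85.6%), 77.7% among SINE-centred peaks (77.0 to 78.5%) and 75.1% among intergenic or intronic peaks outside repeats (74.8 to 75.4%). The median distance from the peak centre to the nearest TSS was 31737 bp for LTR-centred peaks (30638 to 32902 bp), between 39176 bp for LINE-centred peaks and 26926 bp for SINE-centred peaks. It was 41049 bp for intergenic or intronic peaks outside repeats. At 10 to 100 kb lay 59.0% of LTR-centred peaks (58.1 to 59.9%), against 58.4% of LINE-centred peaks (57.5 to 59.3%), 57.3% of SINE-centred peaks (56.4 to 58.2%) and 50.5% of intergenic or intronic peaks outside repeats (50.2 to 50.9%). All 3 retroelement classes thus lay above peaks outside repeats at these distances, with overlapping intervals between LTR and each of the others. The share of the genome held by each repeat class was not computed, so none of these shares is an enrichment.

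Most LTR-centred peaks came from 2 families. ERVL-MaLR held 5075 of the 11740 peaks, or 43.2% (42.3 to 44.1%), and ERVK held 4136, or 35.2% (34.4 to 36.1%). ERVL followed with 1527 peaks (13.0%) and ERV1 with 938 (7.99%). Gypsy had 29 peaks, and the remainder carried an uncertain or general family name.

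ERVL-MaLR peaks were the lowest of the main families. Their median score was 4.13 and 18.2% were in the top 25% of scores (17.2 to 19.3%), against 21.8% for ERVK (20.6 to 23.1%), 20.8% for ERVL (18.8 to 22.9%) and 22.9% for ERV1 (20.3 to 25.7%). The MaLR interval overlapped that of ERVL and lay below those of ERVK and ERV1. A width of at least 1000 bp was reached by 5.58% of MaLR peaks and 7.30% of ERVK peaks. ERVK peaks lay closer to genes, at a median of 27751 bp from a TSS (26468 to 29364 bp), against 35712 bp for MaLR peaks (34224 to 37718 bp). ERV1 peaks, at 27875 bp, were like ERVK peaks in distance, and 90.3% of ERV1 peaks and 88.2% of ERVK peaks were intergenic, against 85.6% of MaLR peaks.

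Internal segments, the part between the LTRs, held 1959 of the LTR-centred peaks (16.7%). In ERVK the internal segment accounted for 1012 of 4136 peaks (24.5%). Of these ERVK internal peaks, 26.8% had a score in the top 25% (24.1 to 29.6%), against 20.2% of the 3124 peaks in ERVK LTRs (18.8 to 21.6%). The median score was 4.74 in ERVK internal peaks and 4.33 in ERVK LTR peaks. Without chromosome 20 the shares were 24.8% (22.2 to 27.7%) and 19.7% (18.3 to 21.2%), with intervals that still did not overlap. In ERV1 the order was the opposite, at 16.9% of internal peaks (11.4 to 24.5%) and 23.8% of LTR peaks (21 to 26.9%), with overlapping intervals. In ERVL (20.3% internal and 20.9% LTR) and in ERVL-MaLR (17.4% and 18.3%) the shares were close. Internal segments were recognised by their repeat name, and the strand of the repeats is not given in the list.

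The LTR-centred peaks carried 451 repeat names, and the 15 commonest held 3710 peaks (31.6%). Of the 15, 10 were MaLR names, led by MTD with 629 peaks, MTC with 388, ORR1E with 270 and MTE2a with 269. MTEa had 252 peaks, ORR1F 251, ORR1D1 228, MTE2b 199, ORR1D2 189 and MLT1A0 150. The others were RMER15 with 232, RMER5 with 199, RMER19B with 159, MYSERV6-int with 151 and MLTR14 with 144.

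Among the 67 names with at least 50 peaks, the 5 with the highest median score were all ERVK, and 4 of them were internal segments. Of all 451 names, 154 were ERVK, and internal segments held 16.7% of LTR-centred peaks. RMER16-int had a median of 8.46 (5.57 to 11.6, 64 peaks), MYSERV_Rn-int 7.63 (4.54 to 14.4, 64 peaks), MurERV4-int 6.60 (4.13 to 12.8, 69 peaks), MYSERV-int 5.57 (4.54 to 8.04, 76 peaks) and the LTR RNLTR2d 5.47 (60 peaks). A score in the top 25% was held by 45.3% of RMER16-int peaks and 43.8% of MYSERV_Rn-int peaks. Without chromosome 20 the median was 4.95 for MurERV4-int and 7.43 for MYSERV_Rn-int. MurERV4-int then lay below MT2B, an ERVL LTR with a median of 5.26 and 0 peaks on chromosome 20. The order of the highest names thus depended in part on that chromosome. The lowest medians were 3.51 for MTE-int, 3.71 for MLT1A1 and RMER17C-int, and 3.82 for RLTR19-int. The next 4 names tied at 3.92, namely RLTR18B, MTC-int, RMER19C and ORR1D2. Copies of one repeat resemble each other in sequence, to a degree that differs between names and was not measured here. How reads that align to several copies were treated is not given in the sources used here, so the values of single copies are uncertain.

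**Figure D2:**
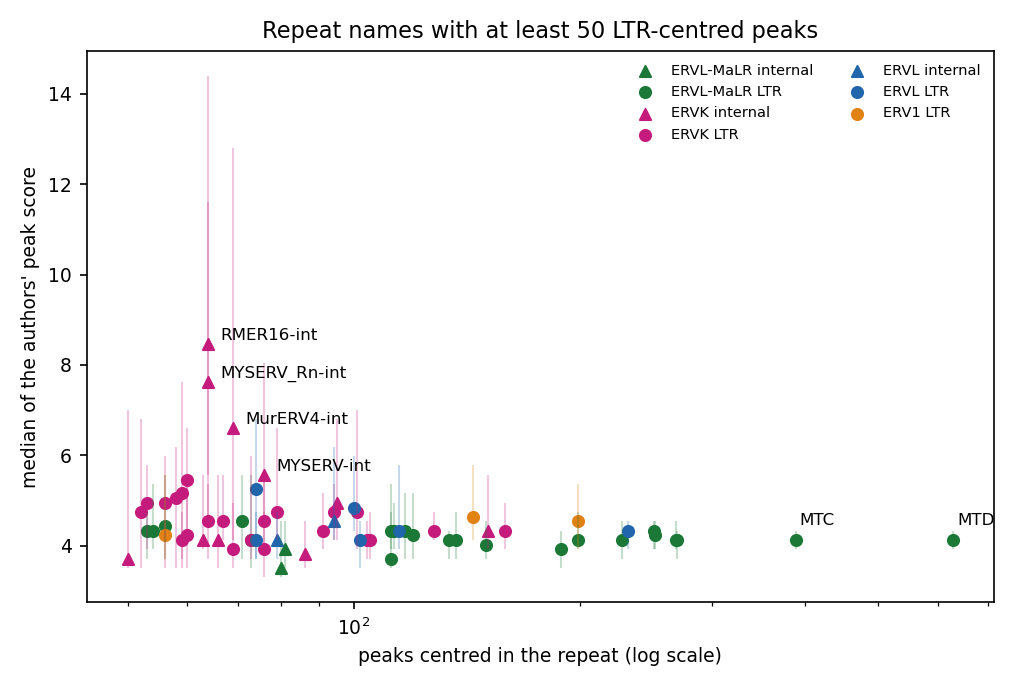
Median of the authors' peak score against the number of peaks (log scale) for the 67 repeat names with at least 50 LTR-centred peaks, by family and by LTR or internal segment. The 4 highest ERVK internal names reach medians of 5.57 to 8.46, while MTD, the name with most peaks (629), lies at 4.13.

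The lettered subfamilies of ERVL-MaLR differed in their distance from genes. MaLR names carry letters that, by the usual repeat classification in rodents, run broadly from younger to older copies in ORR1 and MT, which is background and was not measured here. ORR1A peaks had a median distance of 22390 bp to the nearest TSS (16471 to 28583 bp), ORR1B 23360 bp, ORR1C 25440 bp, ORR1D 34028 bp (28622 to 38601 bp) and ORR1E 47658 bp (39311 to 67198 bp). ORR1F at 39720 bp and ORR1G at 49762 bp (21756 to 90815 bp) did not extend the order beyond their intervals. Neighbouring letters from ORR1A to ORR1C overlapped, while ORR1A and ORR1E did not. In MT elements the medians were 36751 bp for MTB, 31381 bp for MTC, 33328 bp for MTD and 42115 bp for MTE (37025 to 48081 bp), with no order from MTB to MTD. MLT1 letters had no order, with medians between 27849 and 58382 bp. The share of top 25% scores also had no order along ORR1, at 17.0% in ORR1A, 23.7% in ORR1B and 15.6% in ORR1D. These subfamilies were grouped after their values were seen.

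**Figure D3:**
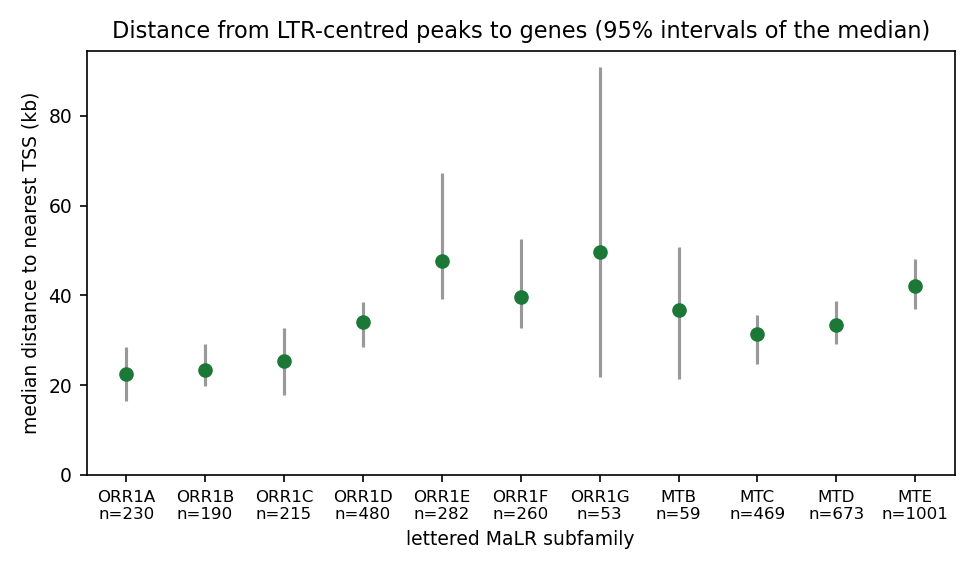
Median distance (kb) from LTR-centred peaks to the nearest TSS for the lettered ORR1 and MT subfamilies of ERVL-MaLR, with 95% intervals of the median as bars and the number of peaks under each letter. ORR1A to ORR1C lie between 22.4 and 25.4 kb and ORR1E lies at 47.7 kb.

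Chromosome 20, which carries the rat major histocompatibility complex (MHC), lay above the range of values of the other autosomes. LTR elements held the centre of 370 of its 3091 peaks, or 12% (10.9 to 13.2%), against 7.92% (chromosome 18) to 10.3% (chromosome 11) on the other 19 autosomes. The interval overlapped that of chromosome 11 (9.29 to 11.3%). ERVK made up 55.1% of the LTR-centred peaks on chromosome 20 (50.0 to 60.1%, 204 peaks), against 30.0 to 39.3% on the other 19. A top 25% score was held by 32.4% of the LTR-centred peaks of chromosome 20 (27.9 to 37.4%) and by 29.1% of its other peaks (27.5 to 30.9%), with overlapping intervals. On the other 19 autosomes that score was reached by 16.5 to 23.0% of LTR-centred peaks and by 21.4 to 28.1% of other peaks. Chromosome 20 thus lay far above the range of the other autosomes for LTR-centred peaks and slightly above it for other peaks. The X chromosome had 86 LTR-centred peaks among its 1285, or 6.69% (5.45 to 8.19%).

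**Figure D4:**
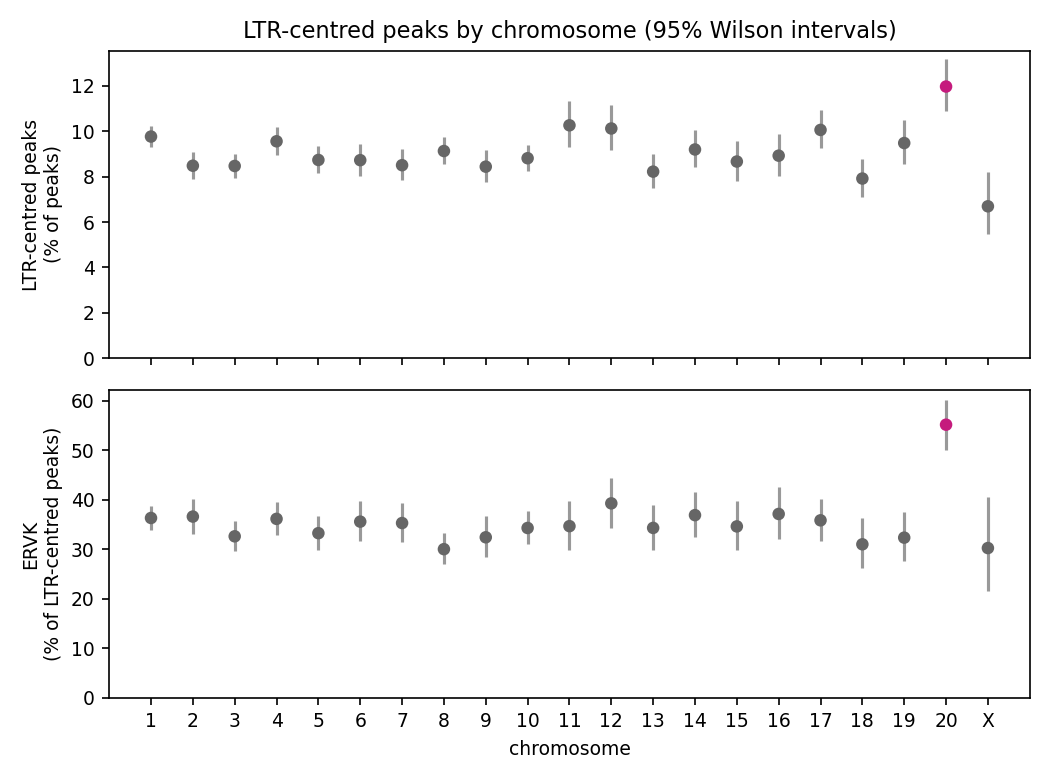
LTR-centred peaks by chromosome, as the share (%) of a chromosome's peaks centred in an LTR element and the share (%) of those that are ERVK, with 95% Wilson intervals as bars. Chromosome 20 has the highest value in both, 12% and 55.1%.

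LTR-centred peaks were common beside the RT1 genes, the rat MHC genes that encode antigen-presenting molecules. An RT1 gene was the nearest gene of 302 peaks, and 85 of them were LTR-centred (28.1%, 23.4 to 33.5%). The LTR share was 9.06% over all peaks and 12% over the peaks of chromosome 20. The 85 peaks named 28 RT1 genes, had a median width of 437 bp and a median score of 16.7 (10.3 to 23.3), and 63.5% were in the top 25% (52.9 to 73.0%). Over the whole list this held for 25.1% of all peaks and 20.2% of LTR-centred peaks. The other 217 RT1 peaks had a median score of 11.8 (9.08 to 17.1) and 56.2% in the top 25% (49.6 to 62.7%), so LTR and other peaks overlapped. The 285 LTR-centred peaks elsewhere on chromosome 20 had a median of 4.54 and 23.2% in the top 25% (18.6 to 28.4%), against 19.8% of the 11370 on other chromosomes (19.1 to 20.6%). ERVK still made up 151 of those 285 (53.0%), so the high ERVK share also held where the nearest gene was not an RT1 gene. The distance of these 285 peaks from RT1 genes was not measured, and some may lie within the MHC.

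Within the RT1 set, the 30 peaks in ERVK internal segments had a median score of 26.6 (14.6 to 98.2), and 23 of them were in the top 25% (76.7%, 59.1 to 88.2%). The 23 peaks in ERVK LTRs had a median of 13.2 (7.63 to 31.1) and 60.9% in the top 25% (40.8 to 77.8%), and the 10 LINE-centred RT1 peaks had a median of 29.1 (4.33 to 48.3) with 7 in the top 25%. All of these intervals overlap. MurERV4-int and SRV_RN-int each gave 11 of the 85 peaks, with highest scores of 698 for MurERV4-int and 182.3 for SRV_RN-int and summed scores of 2031 and 491. MurERV4 and MYSERV internal segments together had a median score of 50.2 in 16 RT1 peaks (20 to 396.9), 14 of them in the top 25%, against 4.95 in 502 peaks elsewhere (4.54 to 5.57). Score per kb of width was higher for LTR-centred peaks at RT1 genes, with a median of 36.6 (30.1 to 47.2), than for LTR-centred peaks on other chromosomes, with 22.3 (22.1 to 22.5). It was 28.9 for other RT1 peaks (27.5 to 31.5), whose interval overlapped that of the LTR-centred RT1 peaks. RT1 genes are a family of similar copies, and reads shared between copies could move these values. The grouping by RT1 genes followed the values of chromosome 20. MurERV4 and MYSERV were pooled after their values were seen, and SRV_RN-int, with as many RT1 peaks as MurERV4-int but a lower summed score, was left out. The gap between 50.2 and 4.95 is therefore partly a matter of this choice.

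The 12 highest-scoring LTR-centred peaks spanned scores of 444.5 to 1955.2. The first was an MTC element on chromosome 13, chr13:95723704-95727387, 3683 bp wide, with a score of 1955.2 (95% counting interval 1916 to 1995, in which each score step is taken as 1 tag, an assumption). It ranked 19 among all peaks and lay 22983 bp from LOC498276. A peak outside repeats with a score of 834.4 lay at the same locus, chr13:95678245-95680786, across the TSS of Fcgr2a, an Fc receptor gene of immune cells. The next LTR-centred peak was RMER5 at chr2:218081298-218089652, with a score of 849.6, nearest to Hfe2, which encodes hemojuvelin. MYSERV_Rn-int at chr2:218063815-218073713, with a score of 510.5, was nearest to the same gene.

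Of the 12, 4 were nearest to RT1 genes, as were 0.724% of all LTR-centred peaks and 0.233% of all peaks. MYSERV6-int at chr20:6760338-6767429 had a score of 841 and lay in intron 8 of 9 of a transcript. MurERV4-int at chr20:6726736-6731201 had 698 and lay in intron 6 of 7 of a different transcript. The nearest TSS of both was that of RT1-CE6, at 5407 and 29508 bp, and the annotation does not name the gene of either intron. MERVL_2A-int at chr20:137228-142843 had 726.3 and was nearest to RT1-CE10, and MurERV4-int at chr20:7397075-7401654 had 460.6 and was nearest to RT1-A2. A further peak on the same chromosome, RLTR20A4 at chr20:49021826-49029489, had 597.8 and lay 37084 bp from Ostm1.

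The others included the widest LTR-centred peak, MLT1F at chr1:267580439-267592370, 11931 bp wide with a score of 646, nearest to the zinc finger gene Zfp518a. MLT1D at chr1:270777440-270787424, 9984 bp wide with a score of 509.9, lay 29968 bp from Nkx2-3, a homeobox factor. RMER17C at chr19:54705171-54710953 had 591.8 and was nearest to Ctrb1, which encodes a chymotrypsinogen. RLTR19-int at chr5:29357600-29363509 had 444.5 and was nearest to Esrp1, an epithelial splicing regulator. The widest 5 also held RLTR32_Rn, 9689 bp and nearest to Twistnb, and RLTR24, 8532 bp and nearest to Wdr43. The highest Gypsy peak was LTR81B on chromosome 19, with a score of 58.2, 45228 bp from Tsnax, far below the highest peaks of the other 4 families.

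Score followed width in most LTR-centred peaks, at a median of 22.4 per kb and a 99th percentile of 44.0 per kb. A locus on chromosome 4 departed from this and was chosen after its values were seen. Between Ezh2, the catalytic subunit of PRC2, and Pdia4, a protein disulfide isomerase, chr4:142074720-142118213 held 9 peaks, 5 of them LTR-centred and 4 of those in the ERVK repeat RMER12B. The RMER12B peaks had scores of 206.3, 228.5, 365.7 and 305.1 in widths of 401, 408, 559 and 560 bp, or 514 to 654 per kb. The other 5 peaks of the locus had 42.6 to 376 per kb. The 33 RMER12B peaks elsewhere in the genome had 16.7 to 33.0 per kb and a median score of 5.36, so all 4 copies at the locus stood above every other copy. The 4 copies lay between 42410 and 61791 bp from the nearest TSS.

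Over the whole list, 6 of the 10 peaks with the most score per kb were LTR-centred, against 9.06% of all peaks. They were the 4 RMER12B copies of the single chromosome 4 locus, the MTC peak of chromosome 13 and an MTD-int peak at chr13:94071670-94072043, nearest to Cfap126. More than 100 per kb was found in 56 of all 129550 peaks. Of the 56, 17 were LTR-centred (0.145% of LTR-centred peaks), 0 LINE-centred and 2 SINE-centred, and the others lay outside these classes. Of the 17, 7 lay on chromosome 20 and 5 on chromosome 4. The part of copy number, read alignment or the input in such dense peaks was not tested.

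**Figure D5:**
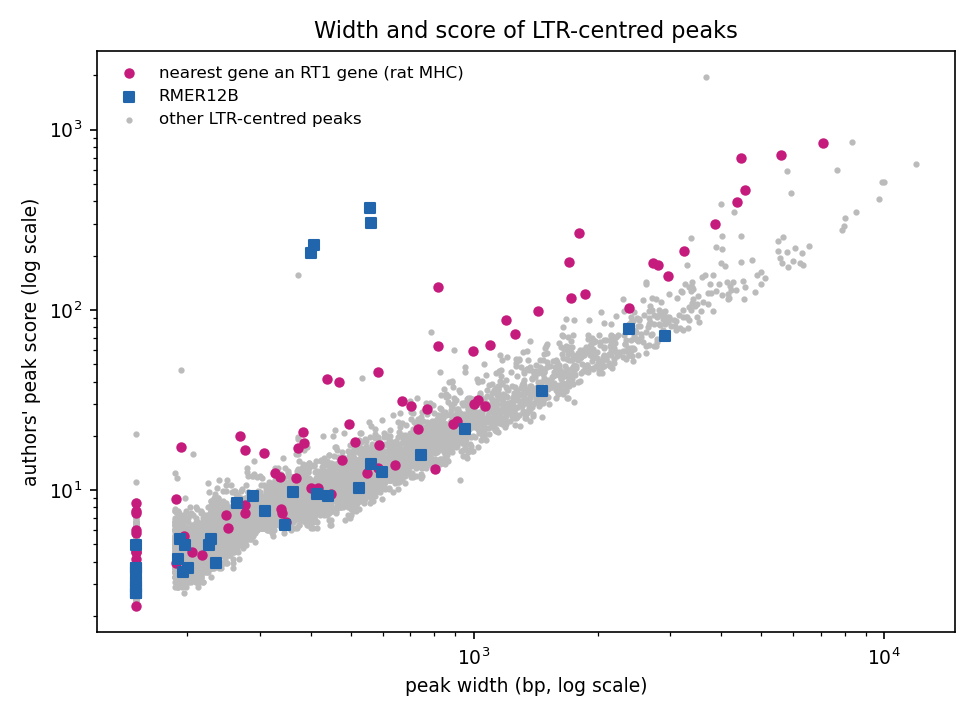
The authors' peak score (log scale) against peak width (bp, log scale) for LTR-centred peaks, with those nearest to an RT1 gene and those in RMER12B marked. Most peaks follow a narrow band, 4 RMER12B peaks of 401 to 560 bp with scores of 206.3 to 365.7 stand above it, and many RT1 peaks lie along its upper edge or over it.

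Few peaks centred in LTR elements reached a promoter. A peak was counted as reaching where its edge came within 1000 bp of the TSS, which held for 4.81% of all peaks and for 49 LTR-centred peaks (0.417%, 0.316 to 0.551%). The share was 0.551% of LINE-centred peaks (0.427 to 0.710%), which overlapped, 1.66% of SINE-centred peaks (1.45 to 1.91%) and 3.59% of intergenic or intronic peaks outside repeats (3.46 to 3.71%). Centres within promoters, exons and untranslated regions are never annotated as repeats, which lowers the counts of all repeat classes against all peaks by construction. Of the 5 that contained a TSS, the Foxe3 peak, chr5:137517389-137521041 in MTB_Rn, had a score of 156.6, and the LOC680885 peak, chr16:8477033-8482139 in MTC, had 150.6. The peaks over Atp6v1h, Olr1522 and Abca17 had 103.3, 67.7 and 21.5. The promoter windows printed above for Foxe3, LOC680885 and Olr1522 thus belong to peaks that differ in score and in CG count, with the highest score at neither the most nor the fewest CG. Other peaks that reached a promoter were RLTR19-int at Esrp1, MTC at Rundc3b (193.7), LTR16A2 at Dlgap2 (178.4) and RLTR22_Mur at Wfdc21 (177).

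Some wide peaks centred in LTR elements lay at developmental regulators, named after their values were seen. RLTR20A4 at chr9:81983882-81987909, 4027 bp wide with a score of 256.6, ended 181 bp from the TSS of Ihh, the Indian hedgehog ligand. ORR1D2 gave a peak of 8033 bp and a score of 323.6 that lay 14617 bp from Sp8, a zinc finger factor of limb and brain development. LTR40b gave a peak of 7890 bp and a score of 277.4 at 12483 bp from Neurog1, a proneural factor of sensory neurons. MTE2a gave a peak with a score of 87 that ended 680 bp from the TSS of Smo, the hedgehog signal transducer.

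LTR-centred peaks close to large domains had higher scores than those farther away, as did peaks of the other classes. A position within 20000 bp of another peak of at least 10000 bp was found for 3.29% of all peaks. The share was 2.71% of LINE-centred peaks (2.42 to 3.03%) and 4.18% of SINE-centred peaks (3.83 to 4.55%). It was found for 330 LTR-centred peaks (2.81%, 2.53 to 3.13%). These 330 had a median score of 6.39 and 37.6% in the top 25% (32.5 to 42.9%), against a median of 4.33 and 19.7% (19.0 to 20.4%) for the 11409 LTR-centred peaks farther away. Among all peaks 46.3% were in the top 25% near such domains and 24.2% farther away. The shares were 39.3% and 19.3% among LINE-centred peaks, and 38.8% and 20.3% among SINE-centred peaks. Some other peak lay within 5000 bp of 88.7% of LTR-centred peaks and of 88.4% of all peaks.

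LTR-centred peaks named 4970 of the 10647 genes in the list as nearest, and 2330 of these were named by a single one. The gene named most often was Rybp, which encodes a subunit of variant Polycomb complexes, by 26 LTR-centred peaks of 181 peaks in all. Ephb3, an ephrin receptor, had 18 of 63, Kcnk1, a potassium channel, 18 of 89, Rbm24, a muscle splicing regulator, 18 of 98, Ets1, a transcription factor, 17 of 202, and Tbx3, a T-box repressor, 16 of 223. Against 9.06% over all peaks, the LTR share was 14.4% for Rybp (10.0 to 20.2%), 8.42% for Ets1 and 7.17% for Tbx3, so for Ets1 and Tbx3 the share was no higher than over the whole list. The closest LTR-centred peak lay 22173 bp from the TSS at Ephb3, 26523 bp at Rbm24, 33981 bp at Rybp, 37063 bp at Kcnk1, 38402 bp at Tbx3 and 74445 bp at Ets1. The LTR share was 28.6% for Ephb3 (18.9 to 40.7%), 20.2% for Kcnk1 (13.2 to 29.7%) and 18.4% for Rbm24 (11.9 to 27.2%). It was 54.3% for LOC685544, at 19 of 35 peaks (38.2 to 69.5%). The MHC gene RT1-CE10 had 18 of 30 (42.3 to 75.4%), and Rpp21, a ribonuclease P subunit, had 16 of 43 (24.4 to 52.1%). These genes were taken by their number of LTR-centred peaks, which favours a high share.

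LTR-centred peaks were a slightly smaller share of the peaks at nerve injury and Schwann cell genes than of all peaks, and those close to a TSS had low scores. The list held 33 genes, 30 of them named by a peak and 17 by an LTR-centred peak. LTR-centred peaks were 49 of the 727 peaks nearest to these genes (6.74%, 5.14 to 8.80%), against 9.06% of all peaks. Their median score was 3.71 (3.30 to 4.54), against 4.33 for all LTR-centred peaks, and 7 of 49 were in the top 25% (14.3%, 7.10 to 26.7%), against 20.2%, and each of these LTR values lay within the list's interval. A promoter was reached by 0 of the 49, and by 0.417% of all LTR-centred peaks. Within 10000 bp of the TSS lay 5 of them. These were MTE2a at 9914 bp from Nfasc, a node of Ranvier adhesion molecule, with 4.13, and MTD at 6050 bp from Olig1, a glial bHLH factor, with 3.92. ORR1D1 at 3262 bp from Ngfr, the p75 neurotrophin receptor, and MT2B at 8886 bp from Pou3f1, a promyelinating factor, had 3.30 each, and MLT1I at 8834 bp from Jun, the injury response factor, had 2.89. The highest of the 49 was LTR16E1 with 53.2, but it lay 203376 bp from Cdkn2b, a cell cycle inhibitor. All 5 near peaks were at or below the LTR median.

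Genes of retroelement silencing were looked at in the same way. Of 12 genes, 7 were named by a peak and 6 by an LTR-centred peak. LTR-centred peaks were 13 of the 56 peaks nearest to them (23.2%, 14.1 to 35.8%), against 9.06% of all peaks, and 5 of the 13 were nearest to Ezh2. Their median score was 4.74 (3.30 to 15.9), against 4.33 for all LTR-centred peaks, and 0 reached a promoter. The highest were a pair of the RMER12B copies described above, nearest to Ezh2. Kdm1a, a histone demethylase, had 4 of the 13, the highest an MTC peak with 15.9 at 37526 bp. Setdb1, the H3K9 methyltransferase, had MYSERV16_I-int with 10.9 at 14851 bp, Dnmt3b, a DNA methyltransferase, had MT2B with 5.36 at 5031 bp, and Eed, a PRC2 subunit, had ORR1D1 with 3.09 at 6057 bp.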

How the data were processed

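The samples were 2 H3K27me3 libraries and 2 input libraries of sham-side sciatic nerve. The submitters' processing notes name CASAVA 1.8.2, Bowtie and HOMER. Per the file headers, the peaks are a combined HOMER list annotated against rn5. The Bowtie version, peak settings, treatment of reads with several alignments, use of the input and way of combining replicates are not given in the sources used for this text. The score of each peak was deposited by the authors without a stated scale. All 97601 scores under 10 were whole multiples of 0.206 within a tolerance of 0.0055, and counting intervals take each step as 1 tag, an assumption. The authors also deposited other values used here, namely coordinates, widths and distances to the nearest TSS, in bp.

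Peaks were split by the repeat class, family and name at their centre. The 12 peaks of an uncertain class (LTR?) were left out. Shares have 95% Wilson intervals, medians have 95% order-statistic intervals, and scores have exact Poisson intervals (Python 3.11.15, pandas 2.3.3, SciPy 1.17.1), and the steps were tested on simulated data. With a single pooled list, no test was possible. Promoter sequences and CG counts are from RefSeq, GRCr8. No rn5 genome was used here, so peak sequences are not shown. The text names the 12 highest and 5 widest peaks, the top peak of each family with at least 20 peaks, the 15 commonest repeat names, the 5 highest and 5 lowest by median among names with at least 50 peaks, the 10 most named genes and the injury genes with a peak within 10000 bp. An item that this rule takes is not reported here. The members and lists were chosen with earlier results of these data known. Alternatives were a score minimum, a width minimum, autosomes alone, inclusion of the uncertain class, other gaps, and, chosen after seeing the data, removal of chromosome 20 and of peaks over 100 score per kb.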

Additional observations from a re-analysis of the deposited data

How the results depend on the processing

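With peaks at or above the median score, the LTR share of all peaks was 8.40%, ERVK made up 37.4% and ERVL-MaLR 40.7% of LTR-centred peaks, the median width was 361 bp, the median score 8.46, the intergenic share 88.2% and the median distance to a TSS 25982 bp. With the top 25% of scores, the LTR share was 7.30%, ERVK 38.0%, ERV1 9.06%, ERVL-MaLR 39.0%, the width 742 bp, the score 17.9, the intergenic share 88.8% and the distance 23164 bp. Without peaks of the smallest width, the LTR share was 8.51%, ERVL-MaLR 41.7%, the width 328 bp, the score 7.84, the intergenic share 88.3% and the distance 27400 bp. Of LTR-centred peaks, 63.2% had another peak within 1000 bp and 96.9% within 20000 bp. By summed width rather than number, the LTR share was 6.46%. Widths and scores move under a minimum on either by construction. Another 41 values, among them all those with the uncertain class, on autosomes alone, without chromosome 20 and without peaks over 100 score per kb, moved by less than the interval of the value reported, and 0 reversed. No paired analysis was possible because the single pooled list has no value per library. Unknown depth limits what a low score can show.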

Other observations

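The uncertain class LTR? was carried by 12 further peaks. The median LTR-centred peak stood at 21 steps of the score grid, and the lowest score of the list at 9 steps. Peaks upstream of their nearest TSS were 60.9% of LTR-centred peaks, against 58.6% of LINE-centred peaks, 56.4% of SINE-centred peaks and 52.1% of intergenic or intronic peaks outside repeats. All 15 peaks named to LOC500684 were LTR-centred, with a highest score of 14.4; this gene was picked after its values were seen.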
